A study of Mus musculus with 2 samples.

Results

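The miRNA cluster in an intron of Sfmbt2 on mouse chromosome 2 holds 119 annotated miRNA genes, out of 2202 miRNA genes measured in all. Its members were taken as the plus-strand miRNA genes that lie within Sfmbt2 (ENSMUSG00000061186.15) in GENCODE M21 on mm10, where the host spans chr2:10370510-10595253 on the plus strand. All 119 loci were kept whether or not they had reads, since the rule for members uses the annotation alone. The measurements come from small RNA of under 30 nt from the left cerebral cortex of B6CASTF1/J mice, first-generation hybrids of C57BL/6J and CAST/EiJ, aged 18 to 20 months. The single group holds 2 libraries, labelled biological replicates 1 and 2. Both point to the same donor record, so separate animals are not established, and any spread may be technical rather than biological. The labels name the sex as male in one field and female in another, so sex was left aside.

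Sfmbt2 encodes a Polycomb-group protein with MBT repeats. The gene is imprinted and expressed from the paternal chromosome in the mouse embryo and placenta, where it is needed for trophoblast growth. Its large intron holds a tandem array of the miR-297, miR-466, miR-467 and miR-669 families, which is specific to rodents, and deletion of the array is known to impair placental growth. Within Argonaute a miRNA pairs with its targets mainly through the seed, bases 2 to 8 from its 5′ end. The counts do not separate the parental alleles, so imprinting was not measured here.

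All members lie in 1 intron of 62472 bases, chr2:10461473-10523944, which is intron 10 of 1 annotated Sfmbt2 transcript and intron 11 of another. No member overlaps an exon of any of the 7 annotated Sfmbt2 transcripts, and the intron holds no miRNA gene on the minus strand. From the start of the first member to the end of the last, the array covers 52.993 kb. By symbol it holds 29 Mir669, 23 Mir466, 14 Mir467 and 5 Mir297 loci and 48 loci with a Gm symbol only. The RefSeq sequence table (GRCm38.p6) matched 0 of the 119 members and 9 of 10 loci of the same 4 families that lie elsewhere in the genome. All 8 mature sequences that the table gives for those relatives are shown, to set their seeds against the members' hairpins. On the plus strand lie miR-466i-3p at chr13:17747552-17747573, miR-466j at chr10:60960802-60960824, miR-466k at chr3:85467396-85467418, miR-466q at chr3:28419988-28420007, miR-467h at chr9:115381898-115381919 and miR-669n at chr3:115979905-115979924. On the minus strand lie miR-467f at chr11:69635419-69635439 and miR-467g at chr5:34732872-34732892. Capitals mark the seed.
miR-466i-3p: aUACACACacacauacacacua
miR-466j: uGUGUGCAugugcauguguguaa
miR-466k: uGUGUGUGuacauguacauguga
miR-466q: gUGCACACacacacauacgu
miR-467f: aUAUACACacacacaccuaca
miR-467g: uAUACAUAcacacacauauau
miR-467h: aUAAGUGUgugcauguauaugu
miR-669n: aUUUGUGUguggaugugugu

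The 8 seeds all differ. The words were searched on the transcribed strand of each annotated hairpin only, and words can overlap each other. UACACAC occurs in 60 of 119 member hairpins (50.4%) and in 8.17% of all miRNA hairpins. All hairpins, here and below, include the 119 members. AUACAUA occurs in 78 members (65.5%) against 6.49% of all hairpins, and GUGUGCA in 62 (52.1%) against 4.81%. GUGUGUG occurs in 50 members (42.0%) against 9.54%, UGCACAC in 30 (25.2%) against 2.63% and UAUACAC in 27 (22.7%) against 5.13%. UUUGUGU occurs in 10 members (8.40%) against 2.59%, and UAAGUGU in 1 member, Mir467e, against 14 hairpins (0.636%) in all. None of the 8 mature sequences occurs whole in a member hairpin. A match to 7 letters in a hairpin is not a seed of that locus, since the ends of the members' mature arms were not used here.

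Library depth sets what can be seen at a single locus. Replicate 1 held 2381663 reads on the gene strand of miRNA genes and replicate 2 held 4436398. Levels are given as CPM, the reads of a locus scaled to a library of 1000000 such reads. A count of 0 allows up to 1.26 CPM in replicate 1 and 0.676 CPM in replicate 2 (3 reads, counting error only), and only for reads that map to 1 place. Reads that map to several places, 35.6% of all reads in replicate 1 and 44.8% in replicate 2, stand under no gene. The levels below therefore leave out any read that a member shares with another place in the genome, and at a member without sequence of its own a 0 sets no upper limit on its level. As a check of the labelled tissue, 8 neuron miRNAs summed to 90297 CPM in replicate 1 and 71445 CPM in replicate 2, while 9 matched embryonic stem cell and early placenta loci summed to 1.68 and 1.13 CPM. In the same order of replicates, 2 oligodendrocyte miRNAs summed to 4678 and 3496 CPM, 1 endothelial miRNA stood at 17007 and 18138 CPM, 1 liver miRNA at 58.4 and 76.0 CPM, and 3 muscle miRNAs at 14.3 and 19.2 CPM. Unmapped reads were 30.8% of all reads in replicate 1 and 14.6% in replicate 2. The part of these gaps in the differences between the libraries below was not tested. In bulk tissue, fewer cells of a type and less RNA per cell cannot be told apart.

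Reads lay at few of the members. Of 119 loci, 11 had a read in either library and 8 had at least 10 reads in each library, while 108 had none. Reads on the gene strand summed to 1783 in replicate 1 and 4442 in replicate 2. The cluster thus took 0.0749% of the miRNA reads of replicate 1, with an exact Clopper-Pearson 95% interval from 0.0714 to 0.0784. It took 0.100% of those of replicate 2, with an interval from 0.0972 to 0.103. The summed level was 749 CPM in replicate 1 and 1001 CPM in replicate 2, a mean of 875 ± 179 CPM (SD, n = 2). The counting intervals do not overlap, so the libraries differed by more than counting noise.

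Mir467d and Mir669c led the cluster, and their order differed between the libraries. Mir467d (ENSMUSG00000077021.2, chr2:10507630-10507714) had 475 reads in replicate 1 and 2158 in replicate 2, or 199 and 486 CPM, with a mean of 343 ± 203 CPM (SD, n = 2). Mir669c (ENSMUSG00000076118.1, chr2:10509296-10509404) had 607 and 1248 reads, or 255 and 281 CPM, with a mean of 268 ± 18.7 CPM. Mir467d was 0.783 times Mir669c in replicate 1 and 1.73 times it in replicate 2, so neither can be ranked above the other beyond the spread of the libraries. Among all 2202 miRNA genes Mir467d ranked 171 in replicate 1 and 121 in replicate 2, and Mir669c ranked 156 and 148.

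Mir467e and Mir669o formed the next step. Mir467e (ENSMUSG00000076948.2, chr2:10505721-10505807) had 379 reads in replicate 1 and 551 in replicate 2, or 159 and 124 CPM, with a mean of 142 ± 24.7 CPM (SD, n = 2). Mir669o (ENSMUSG00000077086.1, chr2:10514300-10514395) had 201 and 301 reads, or 84.4 and 67.8 CPM, with a mean of 76.1 ± 11.7 CPM. Both libraries placed Mir669c above Mir467e and Mir467e above Mir669o, with no overlap of the values between neighbours. The ratio of Mir467e to Mir669o was 1.89 in replicate 1 and 1.83 in replicate 2.

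The remaining 4 loci with at least 10 reads were far lower. Mir669l (ENSMUSG00000076959.1, chr2:10468971-10469068) had 44 reads in replicate 1 and 69 in replicate 2, or 18.5 and 15.6 CPM. Mir467c (ENSMUSG00000077049.2, chr2:10473931-10474027) had 30 and 84 reads, or 12.6 and 18.9 CPM. The order of these 2 loci differed between the libraries. Mir669e (ENSMUSG00000080653.1, chr2:10467495-10467613) had 34 reads in replicate 1 and only 16 in the deeper replicate 2, or 14.3 and 3.61 CPM. Mir669h (ENSMUSG00000080594.1, chr2:10518155-10518279), the last member of the array, had 11 and 14 reads, or 4.62 and 3.16 CPM. Mir669e and Mir669h could not be ordered beyond their spread. Mir466o and Mir297b had 1 read each, in replicate 1, and Gm22239 had 1 read in replicate 2. Single reads of this kind lie under the limit that a count of 0 allows.

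**Figure D1:**
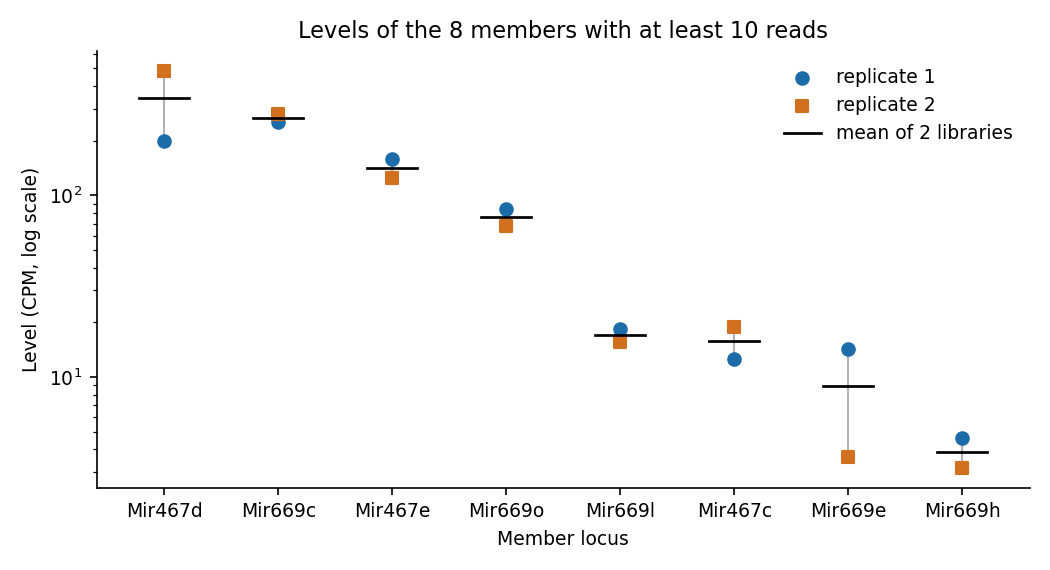
Level in CPM (log axis) of the 8 members with at least 10 reads, with a circle for replicate 1, a square for replicate 2 and a bar for the mean of the 2 libraries. Mir467d spans 199 to 486 CPM and Mir669e 3.61 to 14.3 CPM, while the pair of Mir669c values lies between 255 and 281 CPM.

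Against the other miRNA genes of this cortex, the 8 members with at least 10 reads lay on both sides of the median. Mir467e ranked 179 in replicate 1 and 186 in replicate 2, and Mir669o 204 and 217, of 2202. Of those 2202 genes, 1474 had no read in either library. The median level of the 472 miRNA genes with at least 10 reads in total was 40.6 CPM. The leading 4 of the 8 members in that set lay above it, the same share as of all 472 genes. Over all genes, 201 reached a mean of 100 CPM, among them 3 members, Mir467d, Mir669c and Mir467e.

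The counted reads differed between the families of the array, and they leave out reads that map to several places. Mir467 and Mir669 loci held nearly all of the counted reads. The median share of 20-base words found in no other miRNA gene was 0% at Mir467, 20.6% at Mir669 and 29.9% at Mir466 loci. It was 25.3% at Mir297 and 11.1% at Gm loci. The counts are therefore not the levels of whole families. The Mir669 loci summed to 377 CPM in replicate 1 and 371 CPM in replicate 2, a mean of 374 ± 3.65 CPM (SD, n = 2), from 5 of 29 loci with reads. The Mir467 loci summed to 371 and 630 CPM, a mean of 500 ± 183 CPM, from 3 of 14 loci. The Mir669 sums were thus close together and the Mir467 sums were not. Reads at Mir467 loci per read at Mir669 loci were 0.986 in replicate 1 and 1.69 in replicate 2. Among 23 Mir466 and 5 Mir297 loci 1 read each was counted, and among 48 Gm loci 1 read.

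Within the cluster the 5 leading loci took 95.7% of reads in replicate 1 and 97.7% in replicate 2. Mir669c held the largest share in replicate 1, 34.0% (95% Clopper-Pearson interval 31.8 to 36.3), and Mir467d in replicate 2, 48.6% (47.1 to 50.1). Mir467d held 26.6% in replicate 1 (24.6 to 28.8), a gap of 21.9 percentage points. Mir467e went the other way, with 21.3% (19.4 to 23.2) in replicate 1 and 12.4% (11.4 to 13.4) in replicate 2. With Mir467d left out, the cluster summed to 549 CPM in replicate 1 and 515 CPM in replicate 2, so the higher sum of replicate 2 rests on this locus.

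**Figure D2:**
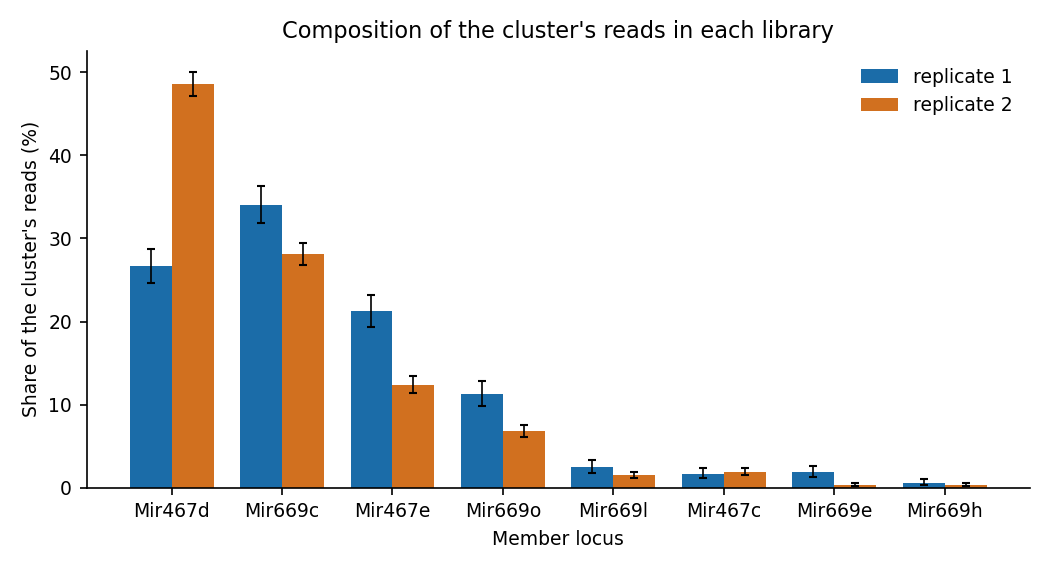
Share of the cluster's reads (%) at each of the 8 members with at least 10 reads, in replicate 1 and replicate 2, with 95% Clopper-Pearson intervals that cover counting error only. Mir467d stands at 26.6% in replicate 1 and 48.6% in replicate 2. All members shown but Mir467d and Mir467c have lower shares in replicate 2. A lower share need not be a lower level, since Mir669c had 255 CPM in replicate 1 and 281 CPM in replicate 2.

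The libraries were also compared locus by locus with a two-sided exact binomial test that allows for counting noise alone, given TMM effective library sizes. This compares 2 libraries and not conditions. Over all 472 genes with at least 10 reads in total, 52.1% passed at a Benjamini-Hochberg adjusted p under 0.05. Of the 8 members tested 4 passed, a share near that background. Mir467d had the higher level in replicate 2, with a log2 ratio of 1.25 ± 0.07 in CPM + 1 (counting SE; exact binomial test, adjusted p = 2.0e-77), the direction in which 27.5% of all tested genes passed. Mir669e (log2 ratio -1.75 ± 0.36, adjusted p = 4.7e-06), Mir467e (-0.38 ± 0.10, adjusted p = 0.000183) and Mir669o (-0.34 ± 0.13, adjusted p = 0.0200) were lower in replicate 2 by the same exact test, the direction of 24.6% of tested genes. Mir669c (0.11), Mir467c (0.53), Mir669l (-0.26) and Mir669h (-0.46) did not pass, with adjusted p from 0.134 to 0.520 in that test. With TMM factors over all genes, an alternative chosen after seeing the data, Mir669o no longer passed the exact binomial test (adjusted p = 0.117) and Mir669c did (adjusted p = 0.00587). The median log2 ratio of the 8 members was -0.30, beside 0.07 for all 472 genes. edgeR's exact test, which allows for a biological coefficient of variation of 0.351 estimated from these same 2 libraries, called 0 of the 8 members and 2 of the 472 genes (0.424%). At an unadjusted p under 0.05, edgeR's test had 1 member and 28 genes.

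Counted reads lay mostly in the last 30 loci of the array, with few in the first 17 and none between. Reads that map to several places stand under no gene. At 52 of the 72 loci between, every 20-base word also occurs in another miRNA gene, so a 0 there sets no upper limit. Members 1 to 17, up to Mir467c, had 109 reads in replicate 1 and 169 in replicate 2, from 4 loci. The longest run of loci without a read came next, 72 consecutive loci from Mir466b-1 to Gm26398 over 30.555 kb. The 30 loci after them, which begin with Mir467e, held 1674 and 4273 reads, or 93.9% and 96.2% of the cluster, from 7 loci. The share of loci with a read was alike, 23.5% in members 1 to 17 and 23.3% in these last 30. The stretch without reads includes Mir467a-1 to Mir467a-10, Mir467b and the run of Mir669a copies with Mir669a-1 and Mir669a-3 to Mir669a-12. From Mir467a-1 to Mir467e, successive Mir467 loci are spaced by 2451 bp at the median (range 2413 to 2470 bp over 10 spacings), apart from a spacing of 4880 bp with the Mir467a copy Gm25022 inside it.

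The hairpins of the middle repeat each other's sequence. Each annotated hairpin was cut into overlapping words of 20 bases, and a word was called unshared if no other miRNA gene held it on either strand. Of the 119 members 117 share at least 1 word with another miRNA gene, beside 49.4% of all 2202 genes. No unshared word remained at 54 members, and none of those 54 had a read. The counting largely sets this outcome in advance, since reads that map to several places stand under no gene. In the stretch without reads 52 of 72 loci had no unshared word, and 46 were identical in their whole hairpin to another member. Before it 0 of 17 loci, and after it 2 of 30, had no unshared word. The largest identical set holds 9 Mir669a loci, and the next holds 7 loci, which are 6 Mir467a copies and Gm25022.

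The members with reads kept part of their sequence to themselves. Among the 8 loci with at least 10 reads the share of unshared words ran from 37.9% at Mir467d to 95.0% at Mir669e, with a median of 58.8%. Among the 108 loci without a read the median was 0.926%. Part of this gap is built in, as only reads that map to 1 place are counted. Mir467d shares words with 14 other loci, which are Mir467a-1 to Mir467a-10, Mir467b, Mir467c, Mir467e and Gm25022, and a read within those words alone maps to several places. Mir467e has 57.4% unshared words and Mir467c 60.3%, and each shares with 16 loci. Mir669c has 81.1% unshared words and shares with 45 loci, while Mir669o has 50.6% and shares with 56. The levels of these 8 loci are therefore uncertain, and the order among them need not be that of the mature miRNAs.

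Unshared sequence did not always come with reads. Of 25 members with more than 50% unshared words, 7 had at least 10 reads, 1 had a single read and 17 had none. Of those 17 loci, 11 have a Gm symbol only. Among all 2202 miRNA genes, 1544 had more than 50% unshared words. Only 472 genes had at least 10 reads in total, and 98.9% of these 472 had more than 50% unshared words. Most of the 1544 genes thus had fewer than 10 reads, so few reads at such loci are not particular to this cluster. Mir466g (ENSMUSG00000078025.1, chr2:10514595-10514674) shares no word with another miRNA gene and had no read in either library. Its neighbour Mir466h (ENSMUSG00000077941.1, chr2:10514891-10514971), with 93.5% unshared words, also had none. At both, the depth allows up to 1.26 CPM in replicate 1 and 0.676 CPM in replicate 2, for reads that map to 1 place in mm10. Differences of the CAST/EiJ chromosome from mm10 were not examined. Mir669o, 1 locus upstream of Mir466g, had 84.4 and 67.8 CPM. Copies in parts of the genome that are not annotated as miRNA genes were not searched.

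**Figure D3:**
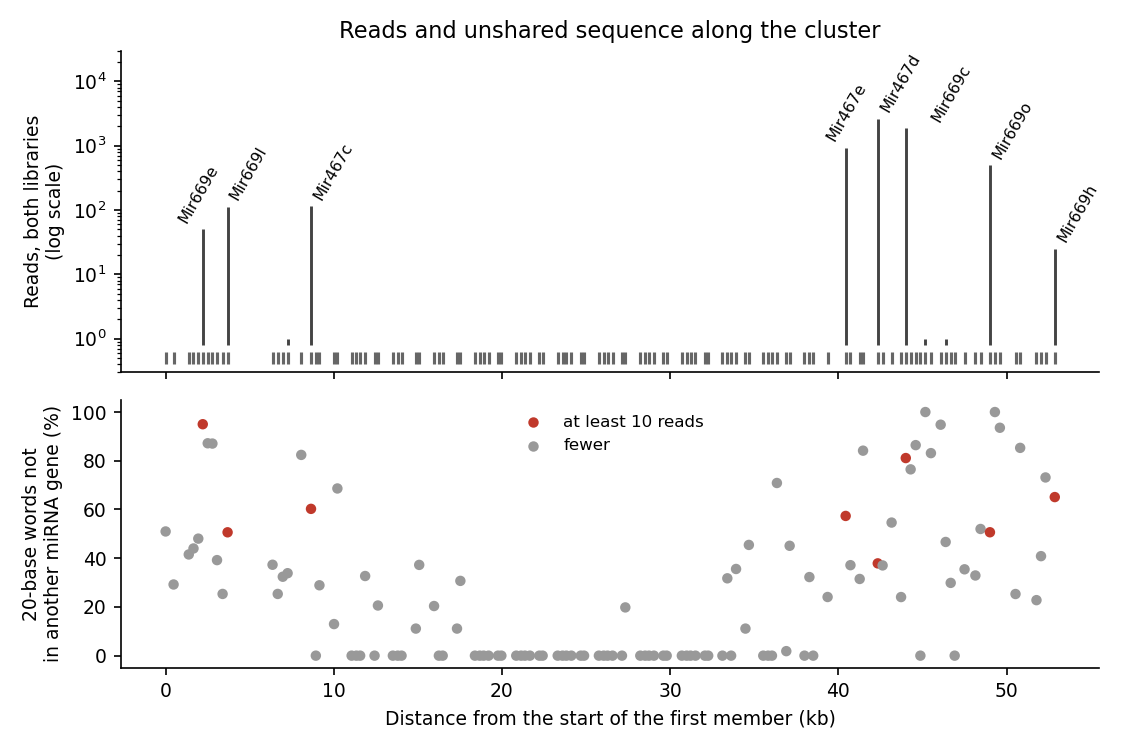
Members along the array by distance from the start of the first member (kb). The upper panel gives the reads of both libraries together (log axis, with a tick for every member), and the lower panel the percent of each hairpin's 20-base words found in no other miRNA gene, in red for members with at least 10 reads. The 72 loci between Mir467c and Mir467e have no reads, and 52 of them lie at 0% unshared words.

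The member hairpins share a base composition. Their median GC content was 37.3% (range 29.0 to 43.4), beside 50.8% for all miRNA genes, and their median length 98 bases, beside 89. The longest strictly alternating run of TG or CA within a hairpin was 9 bases at the median, beside 4 over all genes. The 8 members with at least 10 reads had a median GC content of 39.3% and a median run of 9.5 bases, beside 37.5% and 9 bases for the 108 without a read.

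The relatives outside Sfmbt2 that carry the symbols of these families had almost no counted reads. Of 10 loci with a Mir297, Mir466, Mir467 or Mir669 symbol elsewhere, Mir466q on chromosome 3 had 4 reads in replicate 2 and none in replicate 1, and the other 9 had none. Among them Mir669n shares no word with another miRNA gene, and Mir466f-4 has 90.2% unshared words. The reads counted at loci with these 4 symbols thus came almost entirely from the Sfmbt2 intron. Reads that map to several places are left out. Some Gm loci outside Sfmbt2 also share words with members, and their reads are not given here.

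On the opposite strand the members had 2 reads, both at Mir297a-4 in replicate 1, which is under the limit that a count of 0 allows. At the other 118 loci the count of both strands together equalled that of the gene strand.

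Clusters of related kinds differed in how many loci had reads. In the imprinted Dlk1-Dio3 region of chromosome 12, expressed from the maternal chromosome, 51 of 57 plus-strand loci had a read (89.5%), and the loci summed to 103646 CPM in replicate 1 and 108811 CPM in replicate 2. There 12.3% of loci share a word with another miRNA gene, beside 98.3% in the Sfmbt2 intron. Among 13 Mir344 loci, a family of repeated genes on chromosome 7, 5 had a read (38.5%), 92.3% share a word, and the sums were 59.2 and 67.4 CPM. The median share of unshared words was 52.6% at these Mir344 loci, beside 19.8% in the Sfmbt2 intron. The 9 loci of the Mir290 to Mir295 cluster, which marks embryonic stem cells and early trophoblast, had no read. In the Sfmbt2 intron 9.24% of loci had a read, and over all miRNA genes 33.1% did. These shares were set side by side and not tested, since loci of a cluster share sequence and a transcript.

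**Figure D4:**
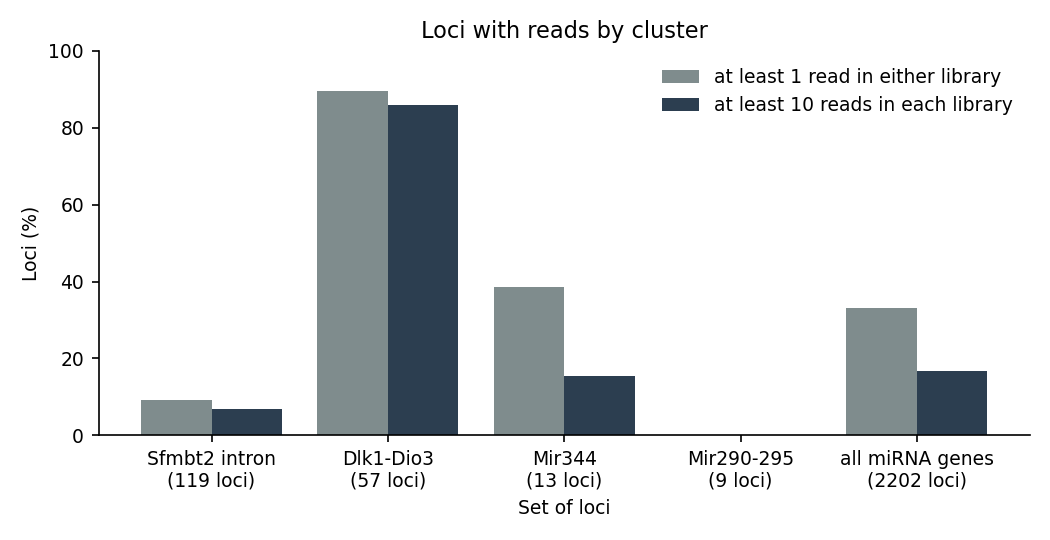
Percent of loci with at least 1 read in either library and with at least 10 reads in each library, for the Sfmbt2 intron, 3 other sets of loci and all miRNA genes. The Sfmbt2 intron stands at 9.24% and 6.72%, the Dlk1-Dio3 region at 89.5% and 86.0%, and the Mir290 to Mir295 loci at 0.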

How the data were processed

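Small RNA from 2 cortex libraries of 1 group was analysed. For each library the authors deposited raw counts of reads for every miRNA gene, in columns for both strands, the strand of the gene and the other strand. Genome mm10 and annotation GENCODE M21 are given per the file headers (the notes deposited beside each table). The aligner is not given in the sources used here. Unmapped, multimapping and no-feature reads stand on separate lines and entered neither library sizes nor tests.

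GENCODE M21 holds all 2202 gene identifiers and gave symbols, coordinates (counted from 1) and hairpin sequences. CPM used the gene-strand miRNA reads as library total. TMM factors, 0.990 and 1.01, came from edgeR 4.0.16 (R 4.3.3) over the genes that reached 10 reads in total. The exact binomial test ran over the same genes with Benjamini-Hochberg adjustment, a threshold of 0.05 and a pseudocount of 1 CPM for log ratios. It was tested on simulated data that held counting noise alone, so its calls under a wider spread were not tested. With 1 group, no quasi-likelihood test exists. Python 3.11.15, numpy 2.4.6, scipy 1.17.1 and pandas 2.3.3 did the rest. PCR reads are not independent molecules, so intervals cover counting error only.

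The rule for members uses annotation only, but the cluster, lists and tests were chosen with earlier results of these data known. Named are members with at least 10 reads in total, and up to 5 relatives by symbol elsewhere with the most reads. The latter gave Mir466q, the only such relative with a read. Members with 1 read, Mir297a-4, Mir466g, Mir466h, Mir669n and Mir466f-4 were named after their values were seen. The mature sequences are all that the RefSeq table gives for the relatives. Mir292a, listed as an embryonic stem cell marker, matched no symbol. Alternatives covered strand columns, read minimums, size factors, word lengths and each library alone.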

Additional observations from a re-analysis of the deposited data

How the results depend on the processing

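The number of members with reads stayed within 1.5 times of 11 with both strands counted (12), at least 5 reads in total (8) or at least 10 in each library (8), and was 9 to 10 with a single library. The summed level was 749 to 1001 CPM with a single library. Scaled to all reads of a library, summary lines included, it was 292 CPM. Restricted to members that share no word of 20 bases, the number with reads was 1 and the summed level 0.113 CPM, since only 2 members remain. The count of members that share a word, 117, was the same for words of 18 and 22 bases and fell to 33 for words shared with genes outside the cluster. At least 10 reads in each library left 2 of the 5 Mir344 loci with reads. edgeR's exact test called 0 members, beside 2 of 472 genes. Its dispersion was estimated from the same 2 libraries that it compares. Their differences thus count as spread, and few calls follow from the design. The other alternatives, RLE factors, library totals, other read minimums and the both-strand column, called 4 members each. Over all 472 genes tested, RLE factors called 241 and library totals 247. A minimum of 1 read called 4 of 11 members, beside 243 of 728 genes. A minimum of 50 reads called 4 of 7 members, beside 233 of 335 genes. The both-strand column called 4 of 8 members, beside 224 of 445 genes. TMM factors over all genes, an alternative chosen after seeing the data, also called 4 members, beside 250 of 472 genes. That alternative lost Mir669o (adjusted p = 0.117, exact binomial test) and added Mir669c (adjusted p = 0.00587, exact binomial test). None of the log2 ratios of the 8 members changed sign where it was computed. Mir669h was not among the 7 members tested at a minimum of 50 reads in total. DESeq2 was not run, as 1 library a side gives it no replicates. No paired analysis was possible because there is 1 group. Depth limits reads that map to 1 place, at a locus with 0, to 1.26 CPM and 0.676 CPM. For the 54 loci without an unshared word, 0 gives no such limit. Mature arms, copies in unannotated sequence and differences of CAST/EiJ from mm10 were not examined.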
